A study of Homo sapiens with 6 samples.

Results

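The EGR, NR4A and IER early genes are 10 genes, EGR1, EGR2, EGR3, NR4A1, NR4A2, NR4A3, IER2, IER3, IER5 and KLF6, out of 56638 gene symbols in the deposited tables. They were chosen by name, with earlier results of these data known. The level of a gene is the sum of TPM over all transcripts and gene IDs that carry its symbol. TPM is the length-corrected abundance of a transcript relative to all transcripts of its library. The libraries are ribosome-depleted total RNA of KMS27, an established human myeloma cell line. Cells labelled wild type gave 3 libraries (control a, b and c), and cells overexpressing HA-TAZ gave 3 (HA-TAZ 1, 2 and 3). Values of single libraries are listed in that order within a group. TAZ is the Hippo pathway coactivator encoded by WWTR1, and HA is a peptide tag. The control columns are named scr, which is in no label, and were placed in the wild type group by elimination. Wild type titles have HA in them, and whether these cells carried a construct is not stated. Promoter, vector and clonal origin of the overexpressing cells are not given in the sources used here. Nothing says that the 3 libraries of a group came from separate cultures, so p-values measure only the spread between these libraries.

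Early genes, also called immediate early genes, are transcribed within minutes of a signal from factors already present in the cell, without new protein synthesis. Many have serum response elements, also called CArG boxes, which bind SRF with ETS-type cofactors downstream of the ERK kinases, and cyclic AMP response elements, which bind CREB. EGR proteins are zinc finger transcription factors, NR4A proteins are orphan nuclear receptors that work without a known natural ligand, and the IER genes, of which IER2 and IER5 are related in sequence, encode regulators without a DNA-binding zinc finger. In B cells, EGR and NR4A genes are classical readouts of antigen receptor signalling, and their transcripts are short-lived.

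IER2, IER3, IER5 and EGR1 rose with HA-TAZ, and all 3 HA-TAZ libraries exceeded all controls for each of the 4 genes, both in TPM as deposited and after rescaling of the libraries. EGR1 passed the test only after rescaling. Of the 6 tested genes IER2 had the largest fold change, from 1.22 ± 0.370 TPM in the controls to 3.46 ± 0.397 TPM (SD, n = 3 each). KLF6, by far the most abundant of the 10, rose by a log2 value of 0.30 after rescaling but was 0.04 lower on the log2 scale with TPM as deposited, where the median of all tested symbols was −0.27. Relative to that median KLF6 was 0.29 higher on scaled and 0.24 higher on deposited TPM. NR4A1 did not pass the test. EGR2, EGR3, NR4A2 and NR4A3 were below a mean of 1 TPM over the 6 libraries and were not tested.

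The test was limma with a trend on log2(scaled TPM + 1), where scaled TPM is TPM divided by a median-of-ratios factor of the library, and a gene is called when its Benjamini-Hochberg adjusted p-value over all 21011 tested symbols is under 0.05. Of the 10 genes, 6 were tested, 5 were called higher and 0 lower. Over all tested symbols, 7.13% were called higher and 2.74% lower. Every HA-TAZ library exceeded every control in scaled TPM for 7 of the 10 genes, against 23.1% of tested symbols and 14.0% of all symbols above 0. With TPM as deposited this held for 4 of the 10, against 3.62% of symbols above 0. Rescaling raised the values of every HA-TAZ library (factors 0.847 to 0.958) and lowered those of every control (1.08 to 1.23), for all genes alike. In the limma fit on TPM as deposited 3 of the 6 tested were called higher and 0 lower, against 1.26% of tested symbols higher and 16.3% lower. The genes were chosen with earlier results of these data known, so these comparisons are no unbiased test. The filter uses the mean over both groups, so IER3, with a control mean of 0.722 TPM, passed it through the HA-TAZ libraries. Leaving out HA-TAZ 1 left 0 of the 6 past the threshold (limma, Benjamini-Hochberg), and their 6 fold changes stayed positive.

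**Figure D1:**
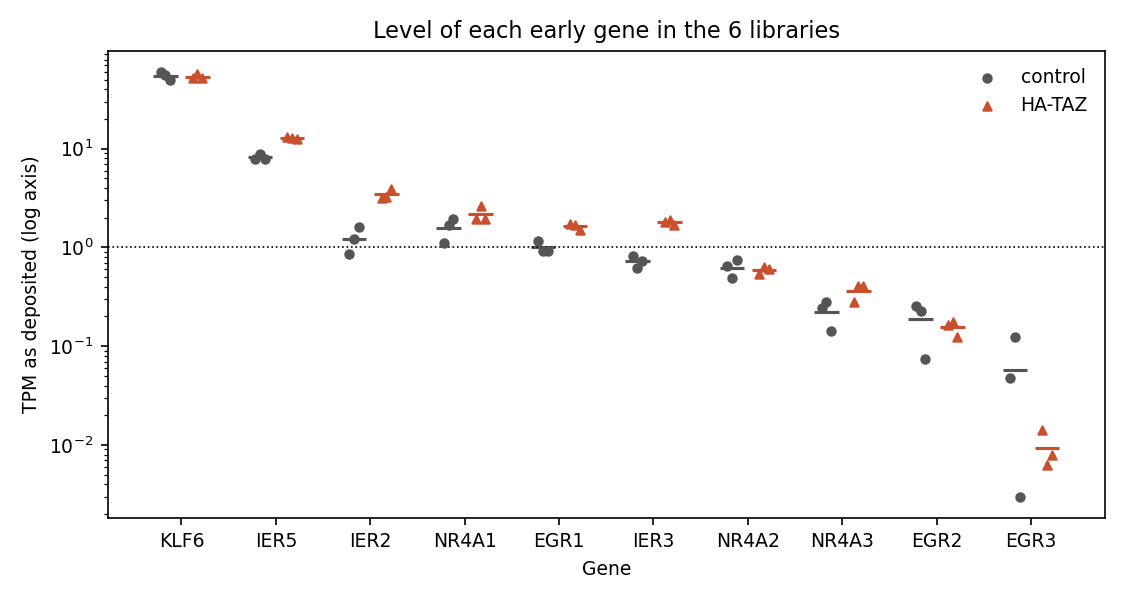
TPM as deposited (log axis) of each of the 10 genes in the 3 control (circles) and 3 HA-TAZ (triangles) libraries, with the group mean as a bar, the filter of 1 TPM as a dotted line, and the EGR3 value of 0 in control c drawn at the foot of the axis. The triangles of IER5, IER2, IER3 and EGR1 lie above all circles of the same gene.

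The genes spanned a wide range of levels. KLF6 had the highest mean in both groups, 53.3 TPM with HA-TAZ and 54.9 TPM without, followed by IER5 at 12.8 and 8.15 TPM. In HA-TAZ libraries the order then ran IER2, NR4A1, IER3, EGR1, NR4A2, NR4A3, EGR2 and EGR3, and only IER3 and EGR1 had overlapping ranges as neighbours. In control libraries it ran NR4A1, IER2, EGR1, IER3, NR4A2, NR4A3, EGR2 and EGR3. There the ranges of NR4A1 and IER2, of IER2 and EGR1, of IER3 and NR4A2, of NR4A3 and EGR2, and of EGR2 and EGR3 overlapped. In bulk RNA, more cells expressing a gene and more RNA per cell cannot be told apart.

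EGR1, the founding zinc finger factor of its family, measured 1.74, 1.70 and 1.51 TPM with HA-TAZ and 1.15, 0.919 and 0.931 TPM in the controls. All 3 HA-TAZ libraries lay above all controls. After rescaling the means were 1.84 ± 0.185 and 0.878 ± 0.0534 scaled TPM (SD, n = 3 each), a ratio of 2.10. The log2 fold change was 0.60 ± 0.11 (standard error; limma, adjusted p = 0.0322). With TPM as deposited it was 0.41, and the call was lost (limma, adjusted p = 0.0606). The call was also lost in each of the 6 fits that left out a library, with adjusted p-values from 0.0666 to 0.111 in limma. EGR1 (ENSG00000120738) has 1 transcript in the table, ENST00000239938.4, and lies at chr5:138465490-138469315 on the plus strand in GENCODE 29 (GRCh38), where no other gene overlaps it.

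EGR2 and EGR3, which share the DNA-binding zinc fingers of EGR1 and take part in lymphocyte tolerance, were near the floor. EGR2 measured 0.164, 0.175 and 0.125 TPM with HA-TAZ and 0.257, 0.229 and 0.0743 TPM in the controls. The control values enclosed the HA-TAZ values. EGR3 ranged from 0.00622 to 0.0142 TPM in HA-TAZ libraries and from 0 to 0.125 TPM in controls, also with overlap. The exact two-sided permutation test on scaled TPM gave p = 1.0 for EGR2 and p = 0.4 for EGR3, where 3 against 3 libraries cannot go below 0.1.

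Stretches of 4 promoters are printed to show the letters of the 2 classical response elements where they occur among the genes searched. RefSeq start sites (GRCh38.p14) were used for 7 of the 10 genes, in 10 windows that run from 250 bases before to 50 bases after a start. The promoters of EGR3, IER3 and NR4A2 were not searched. Capitals mark CArG boxes and the short CRE core TGACG, which reads CGTCA when it lies on the other strand. Each stretch is on the strand of its gene. The EGR1 stretch is chr5:138465334-138465427 (plus strand), that of EGR2 chr10:62816406-62816486 (minus strand), that of NR4A3 chr9:99821766-99821874 (plus strand) and that of IER2 chr19:13150261-13150350 (plus strand).
EGR1: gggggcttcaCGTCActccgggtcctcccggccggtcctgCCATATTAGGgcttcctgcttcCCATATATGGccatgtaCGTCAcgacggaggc
EGR2: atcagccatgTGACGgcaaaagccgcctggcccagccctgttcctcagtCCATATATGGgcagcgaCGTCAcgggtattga
NR4A3: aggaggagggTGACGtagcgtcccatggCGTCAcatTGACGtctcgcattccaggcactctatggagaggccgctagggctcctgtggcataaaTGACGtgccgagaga
IER2: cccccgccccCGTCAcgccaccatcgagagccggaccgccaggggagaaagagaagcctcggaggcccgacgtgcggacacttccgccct

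The EGR1 window held 2 CArG boxes, which begin 105 and 83 bases before the start, and 2 CRE cores. One of the EGR2 windows held 1 CArG box, 71 bases before the start, with 2 CRE cores. CArG boxes were found, on either strand, in 1.29% of the 35116 promoter windows of the same length. The core TGACG was found in 24.6% of windows, with 4 copies in NR4A3 and 1 in IER2. The full element TGACGTCA (1.85% of windows, which contains the core), the EGR site GCGTGGGCG (0.795%) and the NR4A site AAAGGTCA (1.22%) were not in the windows of the 7 genes. The TEAD site GGAATG (14.0% of windows), which was added to the search later because TAZ binds DNA through TEAD factors, occurred once in NR4A3 and at 2 positions in another EGR2 window. None of these letters was in the windows of IER5, KLF6 and NR4A1. A match is a description of letters, not evidence of binding.

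NR4A1, also known as NUR77 and induced by antigen receptor signals in lymphocytes, measured 1.93, 2.65 and 1.94 TPM with HA-TAZ and 1.11, 1.69 and 1.96 TPM in the controls. Control c lay above HA-TAZ 1 and HA-TAZ 3, and control a was the lowest library. The groups separated only after rescaling, with means of 2.41 ± 0.317 and 1.42 ± 0.465 scaled TPM (SD, n = 3 each). The log2 fold change was 0.51 with a 95% interval from 0.08 to 0.93, and the test was not passed (limma, Benjamini-Hochberg adjusted p = 0.109). The level of NR4A1 was spread over 22 annotated transcripts. One of them, ENST00000548232.1, has a natural log effect of 3.75 (standard error 0.948, q = 0.00349) in the authors' deposited table. Its levels were 0.420, 0.453 and 0.630 TPM with HA-TAZ and 0.0287 TPM in control a, and it was listed at 0 in the remaining controls. The log mean over all libraries in the authors' deposited table corresponds to 5.13 estimated counts for this transcript. That mean takes in the controls at or near 0, so it does not give the counts of the HA-TAZ libraries. The size of the effect rests on these control values.

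NR4A2 (NURR1) and NR4A3 (NOR1), the other 2 receptors of the family, stayed below 1 TPM in every library. NR4A2 measured 0.544, 0.628 and 0.603 TPM with HA-TAZ and 0.644, 0.487 and 0.739 TPM in the controls, with the HA-TAZ values inside the control range. NR4A3 measured 0.279, 0.408 and 0.408 TPM with HA-TAZ and 0.243, 0.280 and 0.143 TPM in the controls. HA-TAZ 1 was just below control b, so these groups touched. After rescaling the NR4A3 groups did not overlap, at 0.404 ± 0.0669 and 0.195 ± 0.0604 scaled TPM (SD, n = 3 each; exact two-sided permutation test, p = 0.1). The scaling factors alone shift every gene in this direction. The exact permutation test gave p = 0.4 for NR4A2.

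IER2, a nuclear protein that binds protein phosphatase 2A, measured 3.19, 3.26 and 3.91 TPM with HA-TAZ and 0.858, 1.21 and 1.60 TPM in the controls. The lowest HA-TAZ library lay well above the highest control. The log2 fold change was 1.23 ± 0.17 (standard error; limma, adjusted p = 0.0197), and 1.01 with TPM as deposited (adjusted p = 0.0245). The ratio of scaled means was 3.53, which the log2 scale with a pseudocount of 1 understates. Without control a or control c the call was kept (limma, adjusted p = 0.0409 and 0.0361). Without any 1 of the other 4 libraries it was lost (limma, adjusted p from 0.0632 to 0.0814). IER2 (ENSG00000160888) lies at chr19:13150415-13154908 on the plus strand in GENCODE 29 (GRCh38), where it overlaps AC011446.2. The strand setting of the quantification is not given in the sources used here, so reads of overlapping genes are uncertain.

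Of the 3 IER2 transcripts 1 was tested and called, ENST00000292433.3, which passed the filter of 1 TPM through the HA-TAZ libraries (mean 1.87 against 0.467 TPM). It measured 1.98, 1.94 and 1.69 TPM with HA-TAZ and 0.450, 0.279 and 0.673 TPM in the controls, without overlap (log2 fold change 1.13, limma over all transcripts, adjusted p = 0.0457). ENST00000588173.1 averaged 0.685 ± 0.0889 TPM with HA-TAZ and 0.551 ± 0.226 TPM without (SD, n = 3 each), and the groups overlapped. It held 19.8 ± 1.19% of IER2 TPM with HA-TAZ and 47.2 ± 19.9% without (SD, n = 3 each), lower in all HA-TAZ libraries (exact permutation p = 0.1). ENST00000587885.1 measured 0.618, 0.636 and 1.45 TPM with HA-TAZ, was listed at 0 in control a and reached 0.121 and 0.489 TPM in the other controls. The share of ENST00000292433.3 was 54.9 ± 10.2% and 39.2 ± 15.0%, with overlap.

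IER3, an early gene also known as IEX1 that is induced by NF-kB and modulates cell survival, measured 1.82, 1.89 and 1.70 TPM with HA-TAZ and 0.819, 0.618 and 0.729 TPM in the controls. The lowest HA-TAZ library was above the highest control, and the libraries within each group lay close together. The log2 fold change was 0.88 ± 0.10 (standard error; limma, adjusted p = 0.0132), and 0.70 with TPM as deposited (adjusted p = 0.0268). It stayed between 0.85 and 0.91 with any 1 library left out. The call was lost without HA-TAZ 1, HA-TAZ 2 or control b (limma, adjusted p from 0.0575 to 0.0654). The table lists 6 gene IDs and 12 transcripts for IER3. The ID on the reference chromosome, ENSG00000137331 at chr6:30743199-30744554 on the minus strand in GENCODE 29 (GRCh38), was listed at 0 in every library, as was ENSG00000206478. The other 4 IDs, which are not in the GENCODE 29 primary assembly, had identical values with a mean of 0.316 TPM each. Their sum is the level given here, and each ID alone would fail the filter of 1 TPM. IER3-AS1 overlaps IER3 in GENCODE 29.

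IER5, a regulator that brings protein phosphatase 2A to heat shock factor 1, measured 13.01, 12.9 and 12.4 TPM with HA-TAZ and 7.93, 8.76 and 7.78 TPM in the controls. The 3 HA-TAZ libraries were within a narrow range, and all were above the highest control. The scaled means were 14.3 ± 0.964 and 7.20 ± 0.746 (SD, n = 3 each), a ratio of 1.98. The log2 fold change was 0.90 ± 0.09 (standard error; limma, adjusted p = 0.00927), the smallest adjusted p-value among the 6 tested genes. With TPM as deposited it was 0.59 (adjusted p = 0.0210). Relative to the median of all tested symbols, which was 0.01 on scaled and −0.27 on deposited TPM, IER5 was 0.89 and 0.87 higher on the log2 scale. Among the fits that left out 1 library, the call was lost only without HA-TAZ 1 (limma, adjusted p = 0.0503). IER5 (ENSG00000162783) has 1 transcript in the table, lies at chr1:181088712-181092899 on the plus strand in GENCODE 29 (GRCh38), and overlaps no other gene there.

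The 3 IER genes together summed to 18.02, 18.10 and 18.06 TPM as deposited with HA-TAZ and 9.61, 10.6 and 10.1 TPM in the controls. The EGR genes summed to 1.91, 1.88 and 1.645 against 1.46, 1.27 and 1.01 TPM. Both sums were higher in all HA-TAZ libraries and are set mostly by IER5 and EGR1. The NR4A sums of 2.75, 3.69 and 2.95 TPM with HA-TAZ overlapped those of 2.00, 2.46 and 2.84 TPM in the controls.

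**Figure D2:**
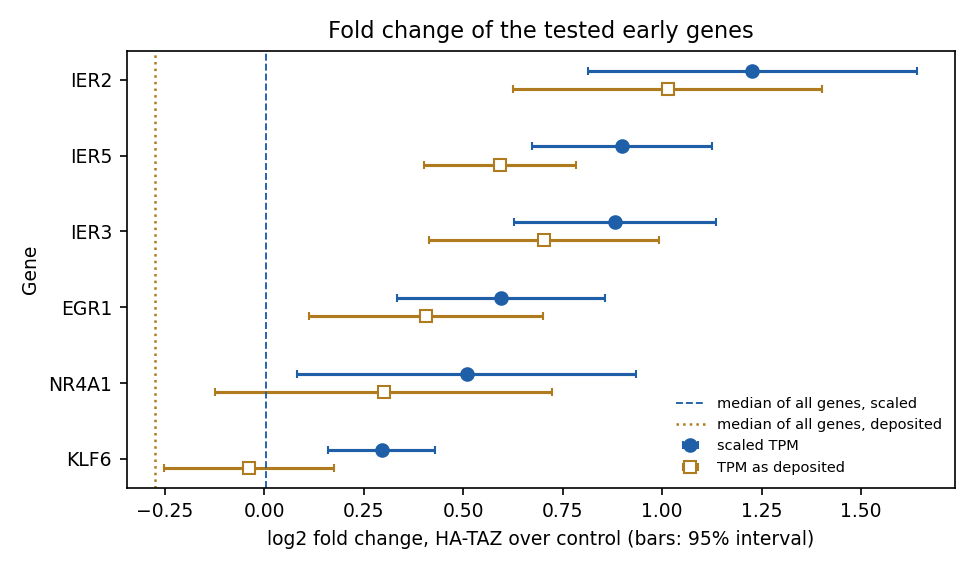
Log2 fold change of HA-TAZ over control for the 6 tested genes, with 95% intervals from limma, on scaled TPM (filled circles) and on TPM as deposited (open squares). The vertical lines are the medians of all tested symbols, 0.01 and −0.27, and KLF6 is the gene whose estimates lie on either side of 0, each above the median of its scale.

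KLF6, a zinc finger factor of the Krüppel-like family that is induced early after stimulation and stress, measured 51.8, 56.4 and 51.7 TPM with HA-TAZ and 59.8, 55.7 and 49.1 TPM in the controls. The control range enclosed the HA-TAZ range. After rescaling the groups separated, with means of 59.4 ± 1.60 against 48.2 ± 2.53 scaled TPM (SD, n = 3 each). The log2 fold change was 0.30 ± 0.06 (standard error; limma, adjusted p = 0.0342), and it was −0.04 with TPM as deposited (adjusted p = 0.759). Minus the median of all tested symbols on the same scale, these are 0.29 and 0.24. Scaling factors computed only over symbols with a mean of at least 10 TPM gave 0.19 (adjusted p = 0.0588). The call was lost in each of the 6 fits that left out a library, with adjusted p-values from 0.0650 to 0.117 in limma. KLF6 (ENSG00000067082) lies at chr10:3775996-3785281 on the minus strand in GENCODE 29 (GRCh38).

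Shares of transcripts within KLF6 do not depend on the scaling of libraries. ENST00000497571.1, protein-coding in GENCODE 29, held 45.7 ± 1.53% of KLF6 TPM with HA-TAZ and 46.2 ± 0.368% without (SD, n = 3 each), with overlap. ENST00000380946.3 held 14.1, 14.0 and 14.2% in HA-TAZ libraries and 9.81, 8.54 and 8.73% in controls. The HA-TAZ shares were nearly equal and all above the controls (exact permutation p = 0.1, the smallest this design allows). ENST00000173785.4 held 10.8, 12.04 and 8.81% in HA-TAZ libraries and 21.2, 18.2 and 15.0% in controls, where each HA-TAZ library was below each control (exact permutation p = 0.1). GENCODE 29 lists both of these as processed transcripts. How often transcript shares separate the groups over all genes was not counted, so these separations, and that in IER2, have no background beside them. Shares within a gene depend on each other, since a rise of 1 lowers the rest. ENST00000469435.1, at 17.4% and 17.1%, and ENST00000492125.1, at 11.6% and 8.71%, had overlapping shares. In limma over all transcripts, ENST00000380946.3 had a log2 fold change of 0.81 (adjusted p = 0.0376), and that of ENST00000173785.4 was −0.42 (adjusted p = 0.211).

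**Figure D3:**
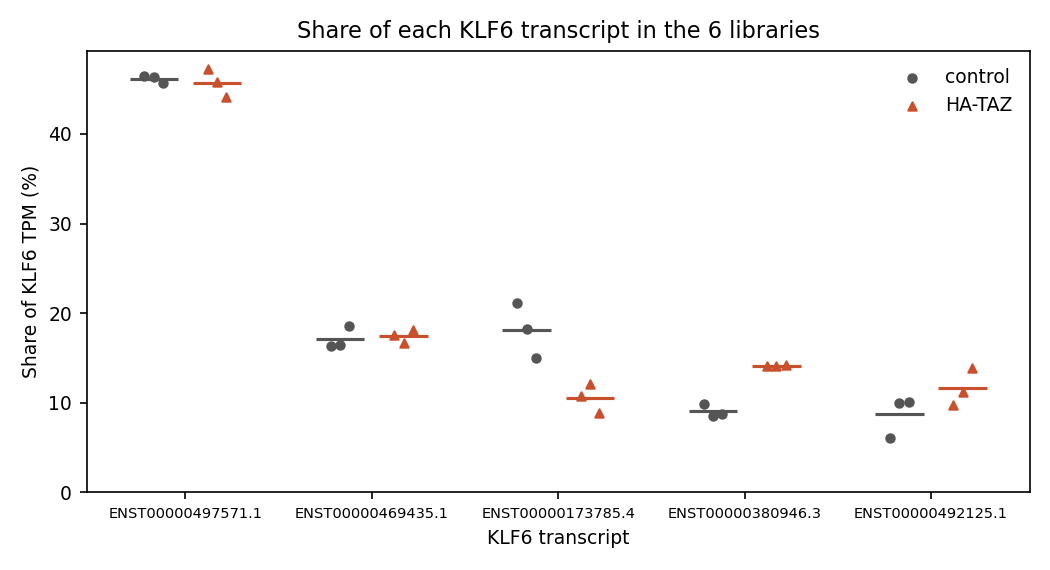
Share of KLF6 TPM (%) held by each KLF6 transcript with a mean of at least 1 TPM in the 3 control (circles) and 3 HA-TAZ (triangles) libraries, with group means as bars. The share of ENST00000380946.3 is higher and that of ENST00000173785.4 lower in all HA-TAZ libraries.

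The 10 genes have 69 transcripts in the table, of which 15 were listed at 0 in every library and 8 passed the filter of 1 TPM. The transcripts called here were 3, those of IER2, IER5 and KLF6 (limma, adjusted p under 0.05), all higher, against 0.494% of tested transcripts called higher. None of the 3 stayed called with any 1 library left out, nor with TPM as deposited. In the authors' deposited table, 32 of the 69 had statistics, and 6 had a positive effect at q under 0.05, against 4.08% of all its transcripts with statistics. Its effects are taken as natural logs of HA-TAZ over control. The authors' deposited table gives EGR1 an effect of 0.729 (standard error 0.119, q = 2.35e-07) and IER5 one of 0.678 (standard error 0.0709, q = 1.44e-18). ENST00000292433.3 of IER2 has 1.66 (standard error 0.480, q = 0.0149) in the authors' deposited table. The authors' deposited table gave KLF6 effects of 0.637 for ENST00000380946.3 (q-value 6.92e-04) and 0.192 for ENST00000497571.1 (q-value 0.00480). Both were positive like the differences in scaled TPM. Of the other KLF6 transcripts with a mean of at least 1 TPM, ENST00000173785.4 had −0.346 there (q-value 0.240). ENST00000469435.1 and ENST00000492125.1 had 0.218 and 0.483 there, with q-values of 0.0593 and 0.0955. The IER3 transcripts had effects of 1.07 and 1.49 in the authors' deposited table, with q-values of 0.152 and 0.274, the same for each of the 4 copies. In that table the effects of the NR4A2 and NR4A3 transcripts and of the single EGR2 transcript with statistics had q-values of 0.144 or more. These statistics come from the same 6 libraries and are no independent support.

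Precision differed widely among the genes. Log means over all libraries in the authors' deposited table corresponded to 7399 estimated counts for ENST00000497571.1 of KLF6 and 1461 for IER5. They corresponded to 252 for EGR1 and 115 for ENST00000292433.3 of IER2. They were 14.1 and 6.20 for each copy of the 2 detected IER3 transcripts, 14.7 for EGR2, and at most 60.3 for any NR4A transcript. TPM carries no depth, so no counting interval is given, and the spread between libraries is the error used throughout.

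The tested genes were compared with the other symbols by the root mean square difference of their log2(scaled TPM + 1), centred on the mean of the 6 libraries. Among symbols with a mean of at least 5 TPM, IER5 lay closest to ATF3, a stress-induced bZIP factor, at 0.0241, then to NFKBIE at 0.0527 and PPP1R15A at 0.0560. IER2 lay closest to MCAM at 0.0797, ZFP36 at 0.0820 and RELB at 0.0892. IER3 lay closest to TRAF4 at 0.0253, SLFN5 at 0.0391 and STEAP1 at 0.0480. EGR1 lay closest to FAM47E-STBD1 at 0.0413, IGF2R at 0.0428 and SERTAD2 at 0.0434, KLF6 to CTB-131K11.1 at 0.0109, STAU1 at 0.0115 and PIR at 0.0161, and NR4A1 to SCAMP4 at 0.0791, ZNF32 at 0.0825 and LY96 at 0.0889. Within the 6 tested genes the closest pair was IER3 and IER5, at 0.108, and the farthest was IER2 and KLF6, at 0.511. The measure includes the difference between the groups. The pseudocount of 1 lowers the log2 differences of genes near 1 TPM, while the compared symbols had at least 5 TPM. EGR1, with a ratio of scaled means of 2.10, had a log2 fold change of 0.60. That is near the 0.58 of IGF2R, which averaged 34.2 TPM. A small distance is thus not a like ratio of levels.

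Other immediate early genes were called in 1 direction on scaled TPM. This list and those that follow were chosen with earlier results of these data known, so their counts are no unbiased test. Of 42 listed genes (KLF2, KLF4 and KLF10 are also in the KLF list) 36 were tested. Of these, 21 (58.3%) were called higher and 0 lower (limma, Benjamini-Hochberg), against 7.13% and 2.74% of all tested symbols. The median log2 fold change was 0.41 against 0.01 over all tested symbols. With TPM as deposited 10 (27.8%) were called higher and 1 (2.78%), KLF2, lower, against 1.26% and 16.3% of all tested symbols. The median there was 0.10 against −0.27. TRIB1, a pseudokinase, rose by 1.35, and the AP-1 subunits JUN and JUNB by 1.08 and 1.42, on the log2 scale. ATF3 rose by 0.91 (limma, adjusted p = 0.00683). SRF, which binds the CArG box and was picked out after its values were seen, had means of 20.9 ± 1.05 TPM with HA-TAZ and 20.1 ± 1.43 TPM without (SD, n = 3 each). Its log2 fold change of 0.37 (limma, adjusted p = 0.0200) was 0.05 with TPM as deposited. With any 1 library left out, 6 to 11 genes of the list were called, the fewest without HA-TAZ 1.

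Of 22 kinases and promoter factors upstream of the early genes, all tested, 2 were called higher and 0 lower, with a median of 0.01. This is 9.09%, near the 7.13% of all tested symbols called higher. They were RPS6KA4 (MSK2) at a log2 fold change of 0.44 and MEF2D at 0.31. MEF2D was at −0.02 with TPM as deposited, and at 0.31 and 0.26 above the median of all symbols on the scaled and the deposited scale. With TPM as deposited 0 were called higher and 4 lower, MEF2C, RPS6KA5, ELK3 and CREB1, or 18.2% against 16.3% of all tested symbols. The most abundant, MEF2C, a factor of B cell signalling, averaged 332 ± 28.7 TPM with HA-TAZ and 486 ± 45.0 TPM without (SD, n = 3 each). Its log2 fold change was −0.21 on scaled TPM (limma, adjusted p = 0.0578). Of 8 tested partners of the early proteins, 0 were called by limma. They include the EGR corepressors NAB1 and NAB2 and the NR4A partners RXRA and RXRB. At an unadjusted p under 0.05 limma had 2 of the 8 higher, HSF1 and RXRA, and 0 lower. Over all symbols, 6692 of the 21011 tested had such a p-value in limma, in either direction. The most abundant of the 8 partners, HSF1, the partner of IER5, had a log2 fold change of 0.47 (limma, adjusted p = 0.0584). Of 12 tested KLF factors other than KLF6, KLF4 was called higher, by 0.62, and 0 lower, with a median of 0.02. At 8.33% this share is also near that of all symbols. With TPM as deposited, 1 partner (NAB1, 12.5%) and 1 KLF factor (KLF2, 8.33%) were called lower and 0 higher, against 16.3% of all tested symbols lower. RPS6KA4, MEF2D and KLF4 each lost the call with any 1 library left out. The genes named here from the deposited scale, and RXRA, were named after their values were seen.

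NF-kB induces IER3, and IER5 acts on heat shock factor 1. Of 16 tested NF-kB primary response genes, 14 (87.5%) were called higher and 0 lower, with a median log2 fold change of 0.97. With TPM as deposited 13 (81.25%) of them were called higher. Of all tested symbols, 7.13% were called higher on scaled and 1.26% on deposited TPM. CXCL10 (3.41), ICAM1 (2.36), TRAF1 (2.00) and BCL3 (1.14, all log2 fold changes) had the smallest adjusted p-values. TRAF1, with means of 4.15 TPM with HA-TAZ and 0.459 TPM without, passed the filter through the HA-TAZ libraries. Of 13 tested heat shock factor targets, 5 (38.5%) were called higher and 0 lower, with a median of 0.30 on scaled TPM. On deposited TPM the median was −0.04, and 1 (7.69%), HSPA1B, was called higher. HSP90AB1, the fifth, had 0.30 on scaled and −0.03 on deposited TPM, or 0.24 above the median of all symbols on the deposited scale. The 4 with the smallest adjusted p-values were HSPA1B (0.68), DNAJB1 (0.51), DNAJA1 (0.35) and BAG3 (0.45, all log2 fold changes). HSPA1B averaged 83.8 ± 3.22 TPM with HA-TAZ and 65.8 ± 2.03 TPM without (SD, n = 3 each). Its near-identical copy HSPA1A had means of 0.191 and 0.161 TPM, so the split between the 2 is uncertain. Without HA-TAZ 1 or HA-TAZ 2, 9 NF-kB genes were called, and with any 1 library left out 1 or 2 heat shock genes were. Both lists were chosen with earlier results of these data known, so their shares beside all symbols are no unbiased test. The difference between the lists was not tested.

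**Figure D4:**
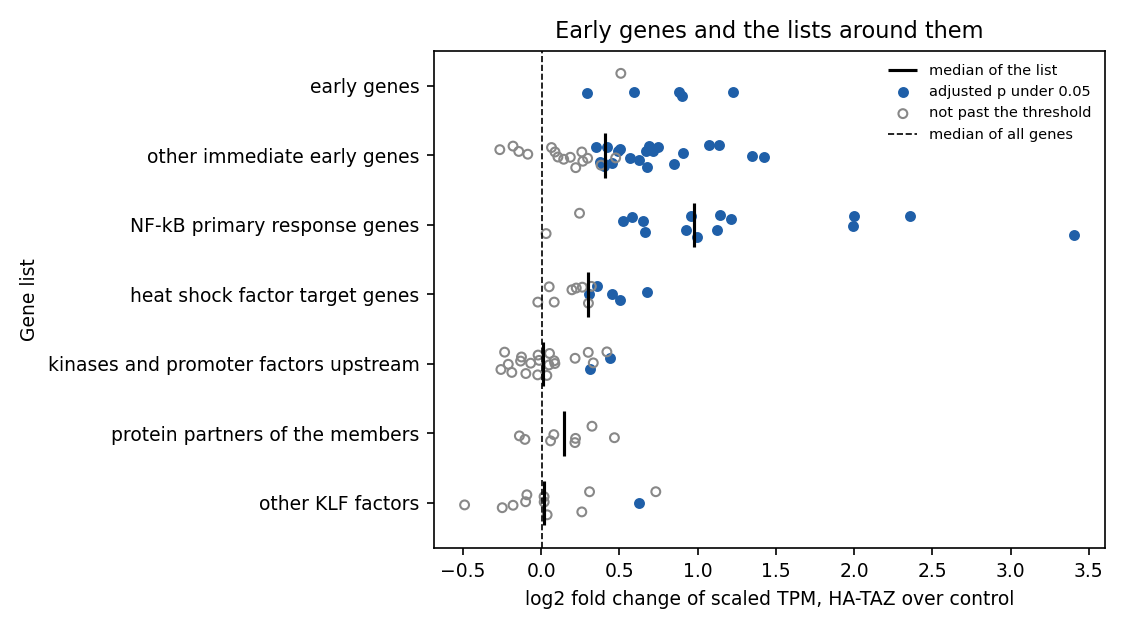
Log2 fold change of scaled TPM for the tested early genes and for the tested genes of each list, 1 point per gene, filled where the adjusted p-value (limma) is under 0.05, with the list median as a black bar and the median of all tested symbols, 0.01, as a dashed line. Points of the NF-kB list reach 3.41, and the upstream and KLF lists centre near the dashed line.

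WWTR1, the overexpressed gene, was at 293 to 306 TPM in the libraries labelled HA-TAZ and at 1.69 to 2.69 TPM in the controls. Plasma cell markers were expressed in both groups, with means of 135 TPM (HA-TAZ) and 160 TPM (control) for XBP1, 173 and 234 TPM for IRF4, and 92.2 and 87.7 TPM for SDC1. Of 10 listed plasma cell markers 9 were tested (JCHAIN was not analysed here), and SLAMF7 was called higher and CD38 lower. On deposited TPM SLAMF7 was called higher and 4 lower (CD38, TNFRSF17, MZB1 and XBP1), where 1.26% of all tested symbols were called higher and 16.3% lower. The 10 markers of T cells, myeloid, epithelial, stromal, endothelial and erythroid cells summed to 8.51 to 8.74 TPM per HA-TAZ library and 10.03 to 13.5 TPM per control, and none of the 4 tested was called. The 4 tested had means with HA-TAZ and without of 2.35 and 3.82 TPM (KRT8), 1.96 and 3.29 TPM (PECAM1), 1.57 and 1.80 TPM (CSF1R) and 1.47 and 1.37 TPM (COL1A1). Of the T cell genes, CD3D was listed at 0 in each HA-TAZ library and in control a. CD3E had means of 0.111 TPM with HA-TAZ and 0.400 TPM without. Their part in the results was not tested.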

How the data were processed

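RNA of 6 KMS27 libraries was analysed from 2 tables. The authors deposited TPM for 215170 transcripts in 6 columns, all of which were used, and the columns have equal sums. The authors also deposited a sleuth table with p-values and q-values, per the file headers. The effects and means in the authors' table were read as natural log values, the default of sleuth, since the header names no base. Its variance columns were not used. Per the submitters' processing notes, kallisto 0.46.0, sleuth 0.30.0 and GRCh37 were named. The strand setting is not given in the sources used here.

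TPM was summed by symbol, which gave 56638 symbols, of which 3075 join several gene IDs. Median-of-ratios factors over 30892 symbols were 0.847, 0.958 and 0.892 for HA-TAZ 1 to 3 and 1.23, 1.10 and 1.08 for control a to c. Symbols and transcripts with a mean TPM of at least 1 were tested with limma 3.58.1 in R 4.3.3 on log2(scaled TPM + 1), with trend, two-sided, Benjamini-Hochberg over all symbols or all transcripts. Python 3.11.15, scipy 1.17.1 and matplotlib 3.10.9 were used for the rest. On simulated data the test recovered 35 of 100 genes changed by 0.5 on the log2 scale and 73 of 100 changed by 1. It made 8 false calls among the unchanged symbols, and the effect of library scaling was not tested there. Only symbols above a set level were changed, so genes near 1 TPM such as EGR1 were not covered. GENCODE 29 (GRCh38) gave transcript types and positions, a build other than that of the files, and RefSeq gave promoters.

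Named were all 10 early genes; of each list the called genes with the 4 smallest adjusted p-values in each direction, and the most abundant upstream and partner gene; the 3 nearest symbols; and transcripts with a mean of at least 1 TPM or a low q-value. Further genes and transcripts, such as SRF, HSPA1A, HSP90AB1 and XBP1, were named after their values were seen. The TEAD motif was also chosen then. Alternatives were other scalings, pseudocounts (0.1, 5) and filters, no trend, gene IDs kept apart, and each library left out. When a library was left out, the filter and the scaling factors were still those of all 6 libraries. The members and lists were chosen with earlier results of these data known.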

Additional observations from a re-analysis of the deposited data

How the results depend on the processing

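No paired analysis was possible because the name of the control columns is in no label, so their numbers cannot be taken for those of the numbered samples. The 5 called early genes became 3 (IER2, IER3 and IER5) with TPM as deposited and without a filter on level, 4 with limma without trend and with factors over symbols of at least 10 TPM (KLF6 lost), 4 with gene IDs apart (IER3 lost), and 2 at a mean of at least 5 TPM, which keeps only IER5 and KLF6 of the 10. With 1 library left out they were 0 to 3: 0 without HA-TAZ 1, 1 without HA-TAZ 2 or control b, 2 without HA-TAZ 3, and 3 without control a or control c. KLF6 turned to −0.037 with TPM as deposited, as did its transcripts ENST00000469435.1 (−0.0098) and ENST00000497571.1 (−0.050), on a scale where the median of all symbols was −0.27 and KLF6 was 0.24 above it. The other 5 tested early genes kept their direction under each alternative run. All called symbols numbered 2074 (72.3% higher), against 3693 with TPM as deposited (7.18% higher), 831 with limma without trend, 778 without a filter and 165 to 662 with a library left out. Factors over symbols of at least 10 TPM gave 1615 (41.4% higher). Without adjustment, 6692 symbols had p under 0.05. The 42 called genes of the lists became 16 to 25 with a library left out. The 3 called transcripts of early genes became 0 with TPM as deposited, 1 with limma without trend, 0 without a filter and 0 in each fit with a library left out. Fewer libraries entered these last fits. The cause of the other moves was not tested. TPM states shares and no depth, so counting error per library is unknown, and genes below 1 TPM such as EGR2 and EGR3 rest on few reads.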
